A study of Homo sapiens and Mus musculus with 56 samples.

Results

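SEM leukaemia cells that received EPZ004777 and MI-2-2 together were compared with SEM cells that received MI-2-2 alone. The contrast shows what differed when cells that received an inhibitor of menin also received an inhibitor of DOT1L. It rests on 4 arrays of the 56 in the series, chosen by sample title: 2 labelled SEM with the combination and 2 labelled SEM with MI-2-2. SEM is a human B-precursor acute lymphoblastic leukaemia line with a KMT2A-AFF1 fusion, and the comparison comes from this single line. The cells were grown in IMDM medium and treated for 6 days with 10 µM MI-2-2 or with the combination, which was taken to hold 3 µM EPZ004777 and 10 µM MI-2-2, the doses given for each compound alone. Another 3 SEM arrays with 3 µM EPZ004777 and 2 with DMSO, also after 6 days, are shown beside them. The design text calls the replicates biological. With 2 arrays a group, p-values measure the spread between these samples only, and precision is limited by this small number.

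DOT1L is the enzyme that methylates a lysine in the globular core of histone H3, a mark of transcribed gene bodies. KMT2A fusion proteins bring DOT1L or its partners to their target genes and keep these genes transcribed. Menin binds the part of KMT2A that the fusion proteins retain and helps to hold them on chromatin. Both compounds are thus directed at target genes of the fusion at different steps, among them regulators that hold leukaemic B precursors in an immature state.

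Values are log2 signals, 1 per gene and array, and a change is a difference of log2 means ± standard error. A gene counts as called where limma gave an adjusted p (Benjamini-Hochberg, all genes tested) below 0.05, and "rose" and "fell" are used for called genes only. The sign † marks probe sets (suffix s or x) that can hybridize to further transcripts. The median change of the 14037 genes tested was -0.0185 log2.

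The 9 SEM arrays had medians of 5.58 to 5.63 log2, and no pair of replicate arrays held the same values. The actin 3' minus 5' value, a measure of RNA quality, was 1.83 and 1.93 on the combination arrays and 1.83 and 1.89 on the MI-2-2 arrays, against 2.32 to 2.48 on the 5 other arrays, so it did not separate the groups compared. It did separate every array with MI-2-2 from every array without it. Where levels with MI-2-2 are set beside those with DMSO or EPZ004777 alone, MI-2-2 and RNA quality cannot be told apart. The corresponding GAPDH value was 0.355 and 0.386 with the combination and 0.349 and 0.311 with MI-2-2. Unlike the actin value it thus separated the 2 groups compared, by a small margin. In this contrast RNA quality by the GAPDH value and EPZ004777 cannot be told apart. It moved in part with EPZ004777 (0.342 to 0.371 with EPZ004777 alone, 0.282 and 0.341 with DMSO). Markers of B precursors were present in all groups: their mean over 9 genes lay between 10.9 and 11.1 log2 on every array. Of 14 markers of T and NK cells 5 were bright enough to test, of 12 erythroid and megakaryocyte markers 4, and of 15 epithelial and stromal markers 9. The mean level of the T and NK cell markers was 4.29 to 4.3 log2 with DMSO, 4.43 to 4.5 with EPZ004777, 4.44 to 4.51 with MI-2-2 and 4.61 to 4.69 with the combination. That of the epithelial and stromal markers was 4.98 to 5.04 with MI-2-2 and 5.12 to 5.14 with the combination, and that of the erythroid ones 4.86 to 4.93 in all groups. CD3D, CD3E, CD2, CD8A, GNLY, KLF1, PF4, EPCAM and CDH1 were among the markers too dim to test (above percentile 40 on fewer than 2 of the arrays). The part that RNA quality or other cells had in the changes was not tested, except by the fits with these values as covariates.

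With the combination 675 genes (4.81%) differed from MI-2-2 alone: 401 rose (2.86%) and 274 fell (1.95%). The rises were the larger changes. Their median was 0.81 log2, 137 were at least 1 log2 and 22 at least 2 log2. The median of the falls was -0.55 log2, with 38 of at least 1 log2 and 3 of at least 2. Among the rises 53 (13.2%) went from below percentile 40 on both MI-2-2 arrays to above it on both combination arrays, and 6 of the falls (2.19%) went the other way. At an unadjusted p under 0.05 lay 2589 genes. In these bulk samples a change in the share of cells that express a gene and a change in its RNA per cell cannot be told apart. The number called depended on each of the 4 arrays: without combination replicate 1 it was 246, without combination replicate 3 325, without MI-2-2 replicate 1 360 and without MI-2-2 replicate 3 249. In all 4 of these fits 173 of the 675 genes were tested and called again, 118 that rose and 55 that fell, and among changes of over 1 log2 these were 108 of 175. With the GAPDH value as a covariate 267 genes were called, 191 higher and 76 lower.

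The transcripts of the inhibited proteins themselves were not called. DOT1L lay at 8.12 and 8.24 with MI-2-2 and 7.90 and 7.94 with the combination (-0.26±0.16, adjusted p = 0.457), and MEN1†, which encodes menin, at 7.92 and 7.99 with MI-2-2 and 8.09 and 8.21 with the combination (0.19±0.15, adjusted p = 0.575). KMT2A (0.03±0.09) and AFF1 (-0.08±0.07), the partners of the fusion, were not called either (adjusted p = 0.908 and 0.62). The other bright probe sets were of mixed sign for both genes, from -0.312 to 0.275 for KMT2A and from -0.203 to 0.095 for AFF1. None of the 17 tested genes of DOT1L and elongation complexes was called (median -0.06), and none of the 14 genes of menin and KMT2 complexes (median 0.01).

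The 15 largest rises were led by genes of monocytes and of chemokine signalling. MS4A6A†, a membrane protein of the MS4A family found on monocytes and macrophages, lay at 5.75 and 6.37 on the MI-2-2 arrays, 9.70 and 9.57 on the combination arrays, 4.13, 3.97 and 4.24 on the EPZ004777 arrays and 3.53 and 3.52 on the DMSO arrays. The combination arrays were thus far above every other array, with the MI-2-2 arrays next, and the change was 3.58±0.18 (adjusted p = 8.87e-05), or 11.9-fold. Its 5 other bright probe sets had the same sign, from 0.46 to 3.92. CCL2†, the chemokine that draws monocytes to sites of inflammation, was measured at 8.02 and 8.14 on the combination arrays against 4.66 and 4.92 with MI-2-2, 3.99, 3.87 and 4.21 with EPZ004777 and 3.87 and 4.24 with DMSO. The MI-2-2 arrays lay a little above those with EPZ004777 or DMSO, and the combination arrays stood apart from all by 3.29±0.16 over MI-2-2 (adjusted p = 8.87e-05). CCR2, the receptor of CCL2, showed the same order of arrays: 6.50 and 7.03 on the combination arrays against 4.01 and 3.71 with MI-2-2, 3.14, 3.54 and 3.49 with EPZ004777 and 3.40 and 3.23 with DMSO. It rose by 2.90±0.20 (adjusted p = 0.000289). On the MI-2-2, EPZ004777 and DMSO arrays both genes lay close to or below percentile 40, so these are rises from a dim level. With the mean of its probe sets CCR2 rose by 1.65.

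GPR183, a receptor for oxysterols that steers B cells and dendritic cells, lay at 6.19 and 6.05 on the MI-2-2 arrays, 8.53 and 8.76 on the combination arrays, 4.24, 3.45 and 3.56 on the EPZ004777 arrays and 3.45 and 3.42 on the DMSO arrays (2.52±0.23, adjusted p = 0.000931). The MI-2-2 arrays exceeded the DMSO arrays, and the combination arrays exceeded both. LYZ†, the lysozyme of granulocytes and monocytes, was at 9.11 and 8.82 on the MI-2-2 arrays, 11.29 and 11.31 on the combination arrays, 6.31, 6.23 and 6.04 on the EPZ004777 arrays and 4.97 and 4.97 on the DMSO arrays. Here EPZ004777 alone stood above DMSO too, and adding it to MI-2-2 gave a rise of 2.33±0.12 (adjusted p = 8.87e-05). The phagocyte pattern recognition protein PTX3 (2.49±0.36, adjusted p = 0.00807), the pantetheinase VNN1 (2.21±0.29, adjusted p = 0.0051) and the adaptor GAPT, a membrane protein of blood cells that binds GRB2 (2.22±0.24, adjusted p = 0.00184), rose as well. For each of these 3 genes the lowest combination array lay above the highest array of any other group.

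**Figure D1:**
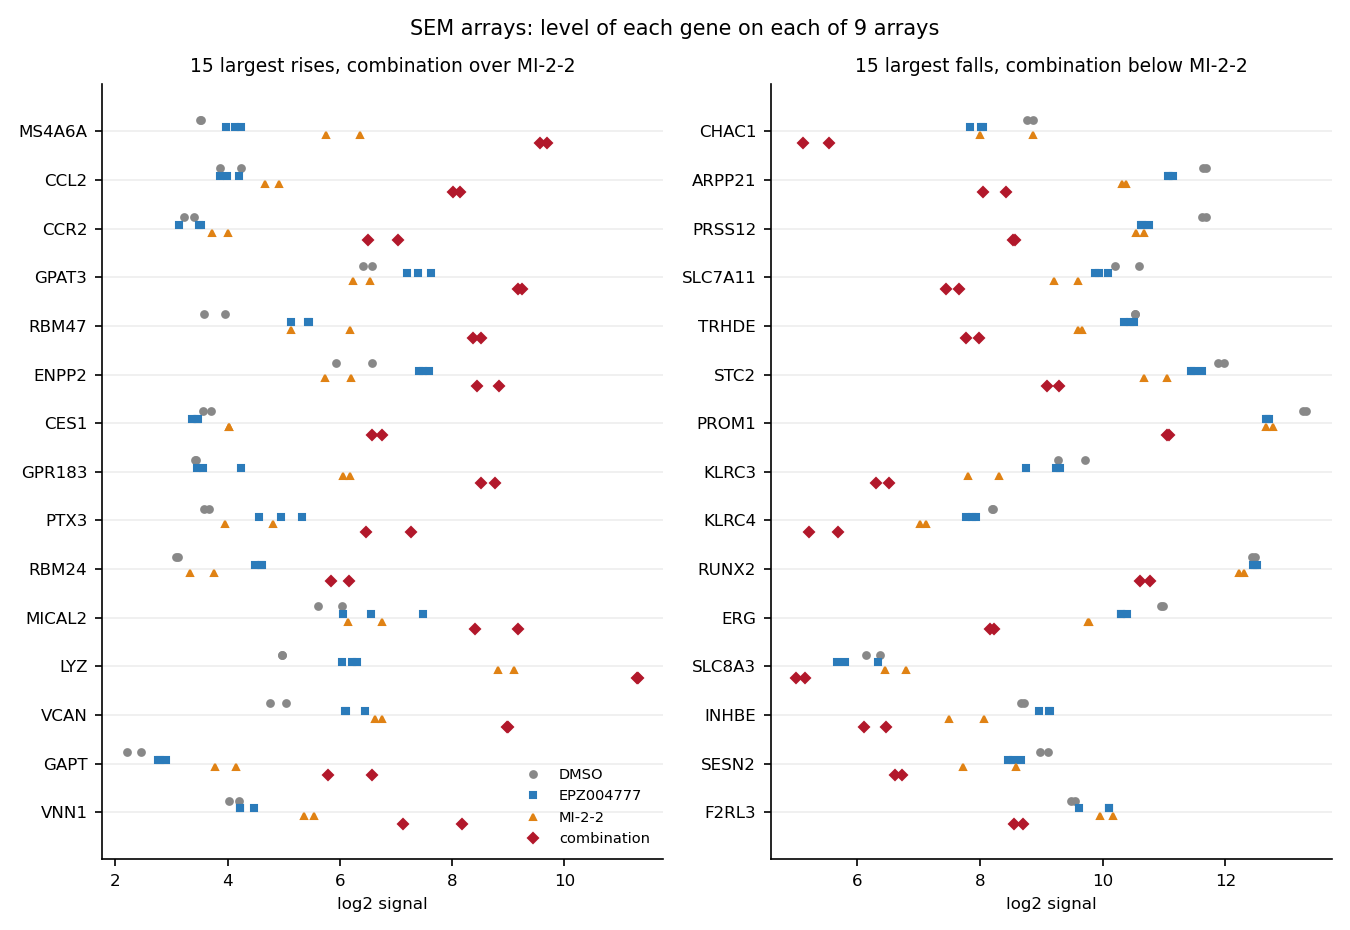
Level (log2 signal, horizontal axis) on each of the 9 SEM arrays of the 15 genes that rose most (left) and the 15 that fell most (right) with the combination over MI-2-2, 1 point per array and 1 marker shape per treatment. The combination points (red diamonds) lie outside the range of the MI-2-2 points (orange triangles) for every gene shown, because the genes were chosen by this rule. For MS4A6A they lie at 9.57 and 9.70 against 5.75 and 6.37.

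The other large rises were of enzymes, matrix proteins and RNA-binding proteins. GPAT3†, which starts the synthesis of glycerolipids, was at 6.23 and 6.54 on the MI-2-2 arrays, 9.17 and 9.25 on the combination arrays, 7.63, 7.19 and 7.39 on the EPZ004777 arrays and 6.41 and 6.58 on the DMSO arrays (2.83±0.15, adjusted p = 0.000107). MI-2-2 alone did not stand apart from DMSO for this gene, while EPZ004777 alone did. ENPP2, the secreted enzyme autotaxin, showed the same arrangement: 6.20 and 5.74 on the MI-2-2 arrays, 8.45 and 8.83 on the combination arrays, 7.41, 7.49 and 7.58 on the EPZ004777 arrays and 6.58 and 5.92 on the DMSO arrays (2.67±0.23, adjusted p = 0.000753). CES1†, a carboxylesterase of liver and monocytes, was at 6.57 and 6.76 on the combination arrays against 4.03 and 4.02 with MI-2-2, 3.46, 3.48 and 3.36 with EPZ004777 and 3.71 and 3.56 with DMSO. The combination arrays lay above all others, and the rise was 2.64±0.09 (adjusted p = 3.21e-05). The matrix proteoglycan gene VCAN† (2.30±0.14) and the RNA-binding protein genes RBM47† (2.79±0.30) and RBM24 (2.46±0.15) rose with adjusted p = 0.000175, 0.00192 and 0.000175. MICAL2†, an enzyme that oxidizes actin, lay at 6.75 and 6.15 with MI-2-2 and 9.18 and 8.41 with the combination (2.34±0.46, adjusted p = 0.0287). Its call was lost without any 1 of the 4 arrays (adjusted p 0.0603 to 0.173), whereas the other 14 kept theirs in each of these fits that tested them. CCR2, CES1†, RBM24 and GAPT were too dim to be tested without 1 of the combination arrays.

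The list with most rises was one of myeloid genes. Of 23 tested myeloid surface and pattern receptors 9 rose and 0 fell, 20 lay above 0, and their median was 0.45 log2 against -0.0185 for all genes. Over all genes 2.86% rose and 1.95% fell, and the counts of this and every further list are to be read beside these shares. Over the 29 members with a probe set the mean level was 6.34 and 6.43 on the MI-2-2 arrays and 6.85 and 6.9 on the combination arrays, with 5.94 to 5.95 for EPZ004777 and 5.51 to 5.53 for DMSO. CD86, a costimulatory ligand for T cells, was at 9.01 and 9.05 on the MI-2-2 arrays, 10.79 and 10.70 on the combination arrays, 7.29, 6.99 and 7.08 on the EPZ004777 arrays and 5.93 and 6.03 on the DMSO arrays. The groups followed each other without overlap, and the step from MI-2-2 to the combination was 1.71±0.10 (adjusted p = 0.000166). ITGAM†, the alpha chain of the integrin Mac-1, rose by 1.68±0.12 (adjusted p = 0.0003), although its other probe set gave -0.20. FCGR2B†, the inhibitory Fc receptor, rose by 1.64±0.21 (adjusted p = 0.00463). The remaining 6 rose by 0.33 to 1.43: CD163†, a scavenger receptor of macrophages, the Fc receptor gene FCGR1A, CSF1R and CSF2RA†, which encode receptors for myeloid growth factors, SIGLEC10 and TLR10†. Whichever of the 4 arrays was left out, 4 of the 23 were called.

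Among 14 tested phagocyte and granule genes 4 rose and 1 fell (median 0.13). Besides LYZ† these were MPEG1, a pore-forming protein of macrophages, MNDA, a nuclear antigen of myeloid cells, and CST3, a secreted protease inhibitor (0.75±0.12, adjusted p = 0.0119). MPEG1 lay at 10.37 and 10.64 on the MI-2-2 arrays, 11.79 and 11.83 on the combination arrays, 9.13, 8.73 and 9.04 on the EPZ004777 arrays and 5.87 and 5.17 on the DMSO arrays. The 4 groups did not overlap. EPZ004777 alone gave 3.45±0.20, adjusted p = 0.00013 against DMSO, and the combination a rise of 1.31±0.23 (adjusted p = 0.0167) over MI-2-2. That step and the rise of MNDA (1.23±0.20, adjusted p = 0.0135) were lost without MI-2-2 replicate 1 (adjusted p = 0.1 and 0.0795) or MI-2-2 replicate 3 (0.0689 and 0.076), and that of MPEG1 also without combination replicate 1 (0.0959) or 3 (0.0896), where MNDA was too dim to be tested. CYBB†, the heavy chain of the phagocyte oxidase, fell by 0.62±0.14 (adjusted p = 0.0455). Whichever of the 4 arrays was left out, 1 of the 14 members was called higher and 0 lower.

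Of 9 tested myeloid transcription factors 2 rose and 0 fell (median 0.26), beside 2.86% and 1.95% of all genes. KLF4†, a factor of monocyte differentiation, was at 6.26 and 6.77 on the combination arrays against 4.94 and 4.93 with MI-2-2, 4.97, 4.53 and 4.70 with EPZ004777 and 4.39 and 4.51 with DMSO (1.58±0.18, adjusted p = 0.00284). NFE2†, which is known from platelet and erythroid genes, was at 7.12 and 7.52 on the combination arrays against 6.01 and 6.12 with MI-2-2, 5.10, 4.95 and 4.75 with EPZ004777 and 5.05 and 4.75 with DMSO (1.25±0.17, adjusted p = 0.00583). For both genes the combination arrays lay above every other array, and both calls held whichever of the 4 arrays was left out. CEBPA (0.33±0.15, adjusted p = 0.301) and SPI1, which encodes PU.1 (0.20±0.11, adjusted p = 0.434), were not called. CEBPA lay at 10.13 and 10.18 on the MI-2-2 arrays, 10.38 and 10.59 on the combination arrays, 9.39, 8.89 and 9.11 on the EPZ004777 arrays and 8.72 and 8.61 on the DMSO arrays. Most of its difference from DMSO was thus present on the arrays with MI-2-2 alone, which also differ from DMSO in the actin value.

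PU.1 is a transcription factor of myeloid and B cells. The 250 bases before the RefSeq start site (GRCh38.p14) were searched for the PU.1 letters GAGGAAGT on both strands (ACTTCCTC on the other strand). A window was found for 11269 of the 14037 genes. The letters occurred in 2.3% of all windows, in 20 of 303 rising genes (6.6%) and in 4 of 212 falling genes (1.89%). No match overlapped with one to the interferon response element (GAAA, any 2 bases, GAAA), which occurred in 2.39% of all windows, 4.29% of rising and 2.83% of falling genes. Windows of 5 rising genes are printed 5′ to 3′ along the gene's strand with the matching letters in capitals, to show how they sit. GAPT at chr5:58491359-58491398 on the plus strand, JAML, a junction adhesion protein of leukocytes, at chr11:118212974-118213013 on the minus strand, CD1A, which presents lipids, at chr1:158248276-158248315 on the plus strand, KYNU†, a kynurenine pathway enzyme, at chr2:142877561-142877600 on the plus strand, and CCL23†, a chemokine, at chr17:36017979-36018018 on the minus strand read:
GAPT: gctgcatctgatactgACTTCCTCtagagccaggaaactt
JAML: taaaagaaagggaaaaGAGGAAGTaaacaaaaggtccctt
CD1A: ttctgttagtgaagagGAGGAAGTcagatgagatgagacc
KYNU: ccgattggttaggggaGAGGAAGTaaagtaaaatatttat
CCL23: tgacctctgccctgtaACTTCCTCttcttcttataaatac
These genes rose by 2.22, 2.13, 1.74, 1.42 and 1.33. A match of letters is a description of the sequence and not a binding site, and these 5 were chosen after the values were seen.

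Genes of antigen presentation by MHC class II rose in part. Of 14 tested members 4 rose and 0 fell (2.86% and 1.95% of all genes), 12 lay above 0, and the median was 0.26. HLA-DQA1, an alpha chain of HLA-DQ, was at 8.83 and 8.73 on the MI-2-2 arrays, 10.01 and 9.89 on the combination arrays, 8.97, 8.85 and 8.89 on the EPZ004777 arrays and 8.42 and 8.31 on the DMSO arrays. The combination arrays lay above all others, and the rise over MI-2-2 was 1.17±0.08 (adjusted p = 0.000281). HLA-DQB1†, its partner chain, rose by 0.48±0.07 (adjusted p = 0.00595), and HLA-DMB, which loads peptides, by 0.69±0.14 (adjusted p = 0.0308), with HLA-DRB1† (0.36±0.07) the fourth. Genes within HLA-DQ, and genes within HLA-DR, are similar in sequence and differ between cell lines, so the share of each probe set's signal is uncertain. The call of HLA-DMB was lost without any 1 of the 4 arrays (adjusted p 0.097 to 0.147), with a replicate block and with the GAPDH covariate. CIITA, the master regulator of the class, was at 9.58 and 9.68 with MI-2-2 and 9.77 and 9.83 with the combination and not called (0.17±0.09, adjusted p = 0.38). Whichever of the 4 arrays was left out, 2 of the 14 were called. None of 14 MHC class I genes was called (median -0.04).

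Interferon response genes gave 0 rises and 3 falls among 18 tested (median -0.2), beside 2.86% and 1.95% of all genes. IFIT2, an antiviral protein that binds RNA, was at 8.44 and 8.47 on the MI-2-2 arrays, 7.24 and 7.33 on the combination arrays, 7.54, 7.52 and 7.63 on the EPZ004777 arrays and 8.62 and 8.43 on the DMSO arrays. Its level was lower on all arrays with EPZ004777, alone or in the combination, than on those without. The changes were -1.18±0.09 over MI-2-2 (adjusted p = 0.000326) and -0.96±0.08 over DMSO (adjusted p = 0.000496). IFITM1†, which blocks the entry of viruses, was at 9.56 and 9.58 on the MI-2-2 arrays, 8.61 and 8.85 on the combination arrays, 9.22, 9.15 and 9.29 on the EPZ004777 arrays and 8.64 and 8.42 on the DMSO arrays. It fell by 0.84±0.11 (adjusted p = 0.00463) when EPZ004777 was added to MI-2-2 and rose by 0.69±0.10 (adjusted p = 0.00574) when it was added to DMSO. The difference between these changes was called (-1.53±0.14, adjusted p = 0.00447). OAS3 (-0.59±0.11) was lost without any 1 of the 4 arrays (adjusted p 0.083 to 0.126).

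Of 20 adhesion molecules, chemokines and their receptors 6 rose and 1 fell (median 0.25), beside 2.86% and 1.95% of all genes. One of these rises, CCR2, was tested only because its combination arrays are bright, as all other arrays lay below percentile 40. CCR2 was followed by CXCL8†, the chemokine interleukin 8, at 5.93 and 5.87 on the MI-2-2 arrays, 7.35 and 7.43 on the combination arrays, 5.33, 5.58 and 5.70 on the EPZ004777 arrays and 4.60 and 4.55 on the DMSO arrays (1.49±0.11, adjusted p = 0.000432). RGS1† and RGS2, which dampen receptor signals, the lymph node homing receptor gene CCR7 and the integrin chain gene ITGB2† rose by 0.57 to 0.99. ITGA5, an integrin chain that binds fibronectin, fell by 0.51±0.09 (adjusted p = 0.0176). The number of rises was 3 without combination replicate 1 or MI-2-2 replicate 1, 2 without combination replicate 3 and 4 without MI-2-2 replicate 3. Among 18 growth factor and cytokine receptors and feedback genes 3 rose and 2 fell (median -0.02), beside the same shares of all genes. IL10RA, the ligand-binding chain of the interleukin 10 receptor, was at 6.19 and 6.05 on the combination arrays against 4.25 and 4.26 with MI-2-2, 4.18, 3.86 and 4.07 with EPZ004777 and 3.69 and 3.94 with DMSO and rose by 1.87±0.12 (adjusted p = 0.000229). Every array without the combination lay below percentile 40, so the gene was tested only because the combination arrays are bright, and it could not be tested without 1 of them. SPRY1, an inhibitor of receptor tyrosine kinase signalling, was at 9.41 and 9.21 on the MI-2-2 arrays, 7.94 and 7.96 on the combination arrays, 10.39, 10.41 and 10.43 on the EPZ004777 arrays and 10.26 and 10.29 on the DMSO arrays. EPZ004777 alone left it near the DMSO level, MI-2-2 alone lay lower, and the combination lowest (-1.36±0.08, adjusted p = 0.00015). The early response factors FOS and JUN† rose by 0.89±0.19 (adjusted p = 0.0422) and 0.68±0.08 (adjusted p = 0.00235), and IGF1R, the receptor for insulin-like growth factor, fell by 0.71±0.11 (adjusted p = 0.0106). The call of FOS was lost without combination replicate 3 (adjusted p = 0.168) or MI-2-2 replicate 1 (0.184) or 3 (0.116), and in 5 other alternatives.

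KMT2A fusion targets changed in both directions. Of 25 tested members 8 fell and 5 rose, beside 1.95% and 2.86% of all genes, and the median was -0.22 log2 against -0.0185 for all genes. HOXA3, HOXA5, HOXA7, HOXA10 and RUNX1 are also on the list of 30. They had no probe set with exactly 1 symbol and were not tested, so the result does not cover the HOXA genes. The mean level of the list was 11.2 and 11.3 on the MI-2-2 arrays and 11.1 on both combination arrays. PROM1†, which encodes the stem cell antigen CD133, was at 12.66 and 12.77 on the MI-2-2 arrays, 11.05 and 11.08 on the combination arrays, 12.66, 12.71 and 12.67 on the EPZ004777 arrays and 13.27 and 13.32 on the DMSO arrays. With either compound alone it lay in the same range, below DMSO, and the combination lay lower still, far beyond the spread between arrays (-1.65±0.07, adjusted p = 4.59e-05 against MI-2-2). RUNX2, a transcription factor of bone and of leukaemic progenitors, was at 12.30 and 12.23 on the MI-2-2 arrays, 10.78 and 10.61 on the combination arrays, 12.49, 12.51 and 12.46 on the EPZ004777 arrays and 12.44 and 12.48 on the DMSO arrays. Either compound alone left it within 0.3 log2 of DMSO. With the combination it fell by 1.57±0.08 (adjusted p = 8.87e-05), or 2.97-fold, and its other bright probe sets gave -0.39 to -2.15. HMGA2†, an architectural chromatin protein, was at 9.78 and 9.70 on the MI-2-2 arrays, 8.61 and 8.70 on the combination arrays, 9.58, 9.64 and 9.65 on the EPZ004777 arrays and 10.55 and 10.54 on the DMSO arrays, and fell by 1.08±0.07 (adjusted p = 0.000206). Of its other bright probe sets 1 had the opposite sign (0.12).

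The other falls among these targets were smaller: the demethylase family member JMJD1C (-0.65±0.08), the membrane protein gene TAPT1 (-0.65±0.07), the ETS factor ELF1 (-0.53±0.07), the B cell factor MEF2C† (-0.48±0.06) and the chromatin organizer SATB1† (-0.47±0.07). The members that rose were CCNA1, a cyclin of germ cells and leukaemia, EYA1†, a transcriptional coactivator (1.15±0.20, adjusted p = 0.0159), the RNA-binding protein IGF2BP2 (0.91±0.19) and the transcription regulators TCF4 (0.77±0.11) and LMO2† (0.46±0.07). CCNA1 was at 10.18 and 10.28 on the MI-2-2 arrays, 11.53 and 11.55 on the combination arrays, 7.93, 7.69 and 7.89 on the EPZ004777 arrays and 6.01 and 5.85 on the DMSO arrays. Every treatment lay above DMSO, and adding EPZ004777 to MI-2-2 gave a rise of 1.31±0.10 (adjusted p = 0.000432). MEIS1, the homeobox cofactor, was not called: it was at 11.94 and 11.87 with MI-2-2 and 11.93 and 11.93 with the combination (0.03±0.06, adjusted p = 0.88). BCL2 (-0.27±0.07), CDK6 (-0.34±0.08), FLT3 (-0.15±0.07) and MYB (-0.22±0.07) were lower without a call (adjusted p = 0.0629, 0.057, 0.299 and 0.11). Without 1 of the 4 arrays 7 or 8 members were called lower. The number called higher was 1 without combination replicate 1 and 2 without any other.

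Of 15 tested stem and progenitor regulators 2 rose and 2 fell (median -0.16), beside 2.86% and 1.95% of all genes. ERG†, an ETS factor of blood stem cells, was at 9.76 and 9.77 on the MI-2-2 arrays, 8.23 and 8.17 on the combination arrays, 10.39, 10.30 and 10.30 on the EPZ004777 arrays and 10.98 and 10.96 on the DMSO arrays. The 4 groups did not overlap, and the fall with the combination was -1.57±0.07 against MI-2-2 (adjusted p = 4.59e-05). PROM1† was the other fall. NRIP1†, a nuclear receptor corepressor (0.76±0.13, adjusted p = 0.0187), lost its call without combination replicate 1 or 3 or MI-2-2 replicate 3 (adjusted p 0.0645 to 0.125). LMO2† was the other rise. The number of rises was 0 without combination replicate 1 or 3 and 1 without either MI-2-2 array.

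Several of the largest falls lay outside the lists. ARPP21, an RNA-binding phosphoprotein known from neurons and early B cells, was at 10.38 and 10.32 on the MI-2-2 arrays, 8.43 and 8.05 on the combination arrays, 11.15, 11.07 and 11.07 on the EPZ004777 arrays and 11.64 and 11.69 on the DMSO arrays (-2.12±0.12, adjusted p = 0.000109). PRSS12, a secreted serine protease, was at 10.54 and 10.68 on the MI-2-2 arrays, 8.57 and 8.54 on the combination arrays, 10.75, 10.63 and 10.65 on the EPZ004777 arrays and 11.62 and 11.68 on the DMSO arrays (-2.05±0.08, adjusted p = 3.9e-05). For both genes each compound alone lay below DMSO and the combination lay lowest. TRHDE, a peptidase that degrades thyrotropin-releasing hormone, was at 9.67 and 9.60 on the MI-2-2 arrays, 7.77 and 7.98 on the combination arrays, 10.36, 10.52 and 10.45 on the EPZ004777 arrays and 10.53 and 10.52 on the DMSO arrays. EPZ004777 alone left it near the DMSO level, and in the presence of MI-2-2 it fell by 1.76±0.09 (adjusted p = 8.87e-05). KLRC3† (-1.65±0.24) and KLRC4 (-1.62±0.14) encode lectin-like receptors of NK cells and are near-identical neighbours, so their 2 values may hold the same signal. F2RL3, a thrombin receptor, was at 9.95 and 10.17 on the MI-2-2 arrays, 8.71 and 8.56 on the combination arrays, 10.10, 9.62 and 10.10 on the EPZ004777 arrays and 9.48 and 9.55 on the DMSO arrays, and the combination arrays lay below all others (-1.43±0.17, adjusted p = 0.00289). SLC8A3, a sodium-calcium exchanger, was at 6.46 and 6.80 with MI-2-2 and 5.01 and 5.15 with the combination (-1.55±0.22, adjusted p = 0.00689). The calls of KLRC3† and SLC8A3 were lost without combination replicate 1 (adjusted p = 0.0724 and 0.0589), and also without MI-2-2 replicate 1 (KLRC3†, 0.0545) or MI-2-2 replicate 3 (SLC8A3, 0.0608). The other bright probe set of SLC8A3, used when all 44 arrays were fitted, gave -0.34 (adjusted p = 0.111).

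The list with most falls was the integrated stress response, the program by which ATF4 raises amino acid transport and synthesis when amino acids are short or proteins misfold. Of 26 tested members 14 fell and 0 rose (1.95% and 2.86% of all genes), 2 lay above 0, and the median was -0.5 log2. The mean of the list was 10.2 log2 on both DMSO arrays, 9.93 to 9.99 with EPZ004777, 9.38 and 9.68 with MI-2-2, and 8.85 and 8.9 with the combination. The groups thus did not overlap, and the MI-2-2 arrays were the farthest apart. CHAC1, an enzyme that breaks down glutathione, was at 8.01 and 8.87 on the MI-2-2 arrays, 5.11 and 5.54 on the combination arrays, 7.84, 8.01 and 8.04 on the EPZ004777 arrays and 8.78 and 8.87 on the DMSO arrays. It was the largest fall of all genes, -3.11±0.26 or 8.63-fold (adjusted p = 0.000532), and stayed called whichever of the 4 arrays was left out (-2.68 to -3.54). SLC7A11, the cystine importer that feeds glutathione synthesis, was at 9.21 and 9.60 on the MI-2-2 arrays, 7.66 and 7.44 on the combination arrays, 9.87, 10.09 and 9.95 on the EPZ004777 arrays and 10.20 and 10.59 on the DMSO arrays. The 4 groups followed each other without overlap here too, and the step from MI-2-2 to the combination was -1.86±0.17 (adjusted p = 0.00085).

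STC2, a secreted glycoprotein of the stress response, was at 10.67 and 11.05 on the MI-2-2 arrays, 9.10 and 9.28 on the combination arrays, 11.48, 11.44 and 11.62 on the EPZ004777 arrays and 11.88 and 11.99 on the DMSO arrays (-1.67±0.13, adjusted p = 0.00049). SESN2†, which restrains the growth kinase mTORC1 when leucine is short, was at 7.73 and 8.58 with MI-2-2 and 6.72 and 6.62 with the combination (-1.48±0.23, adjusted p = 0.0115), and its call was lost without combination replicate 1 (adjusted p = 0.0676) or 3 (0.0705). The remaining falls were CTH (-1.02±0.14) and CBS† (-0.85±0.18) of cysteine synthesis, the lipoprotein receptor gene VLDLR† (-0.93±0.15), ASNS†, which makes asparagine (-0.91±0.13), the factors ATF3† (-0.87±0.13) and DDIT3 (-0.50±0.11), the pseudokinase gene TRIB3 (-0.50±0.10), and the amino acid transporters SLC1A5 (-0.55±0.11), SLC3A2† (-0.49±0.10) and SLC7A5† (-0.43±0.09). ATF4 itself was at 13.54 and 13.59 with MI-2-2 and 13.39 and 13.46 with the combination and was not called (-0.14±0.06, adjusted p = 0.294). The number of falls in the list was 4 without combination replicate 1, 6 without combination replicate 3, 14 without MI-2-2 replicate 1 and 8 without MI-2-2 replicate 3. It was 4 with the GAPDH value as a covariate and 15 with the actin value.

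Members of the list of serine and one-carbon enzymes, which also holds PYCR1† and ALDH18A1 of proline synthesis, fell too. Of 11 tested members 6 fell and 0 rose (median -0.3), beside 1.95% and 2.86% of all genes. PSAT1† of serine synthesis (-0.83±0.14, adjusted p = 0.0148), PYCR1† of proline synthesis (-0.71±0.11, adjusted p = 0.0105) and PHGDH, the first enzyme of serine synthesis (-0.60±0.10, adjusted p = 0.0123), led, followed by the folate enzyme gene MTHFD2 (-0.41±0.08), PSPH (-0.40±0.09) and ALDH18A1 (-0.29±0.06). PHGDH was at 11.20 and 11.42 on the MI-2-2 arrays, 10.71 and 10.72 on the combination arrays, 11.92, 11.72 and 11.87 on the EPZ004777 arrays and 11.92 and 11.91 on the DMSO arrays. EPZ004777 alone lay at the DMSO level, and the 2 groups with MI-2-2 followed below it in order. Without combination replicate 1 or 3 or MI-2-2 replicate 3 no member of the list was called (adjusted p of PHGDH 0.0665 to 0.0799), and without MI-2-2 replicate 1 the number was 2. Of 17 aminoacyl-tRNA synthetase genes, which charge transfer RNAs, 3 fell and 0 rose, and all 17 lay below 0 (median -0.14): CARS1 (-0.67±0.09, adjusted p = 0.00552), SARS1 (-0.48±0.11, adjusted p = 0.0448) and YARS1† (-0.44±0.08, adjusted p = 0.0179). CARS1 was called whichever of the 4 arrays was left out, and SARS1 and YARS1† were lost without combination replicate 1 or 3 or MI-2-2 replicate 3 (adjusted p 0.0528 to 0.197).

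Of 20 ER chaperones and genes of the unfolded protein response 2 fell and 0 rose, and 13 lay above 0 (median 0.08). XBP1, the factor that is spliced by IRE1, was at 10.52 and 10.55 with MI-2-2 and 9.86 and 10.12 with the combination (-0.54±0.09, adjusted p = 0.0145), with 0.10 on its other probe set, and EDEM1, which sorts misfolded proteins, at 11.72 and 11.83 with MI-2-2 and 11.47 and 11.29 with the combination (-0.40±0.08, adjusted p = 0.0356). The call of EDEM1 was lost without any 1 of the 4 arrays (adjusted p 0.0556 to 0.185), and that of XBP1 without combination replicate 1 or MI-2-2 replicate 1 or 3 (0.062 to 0.0947).

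**Figure D2:**
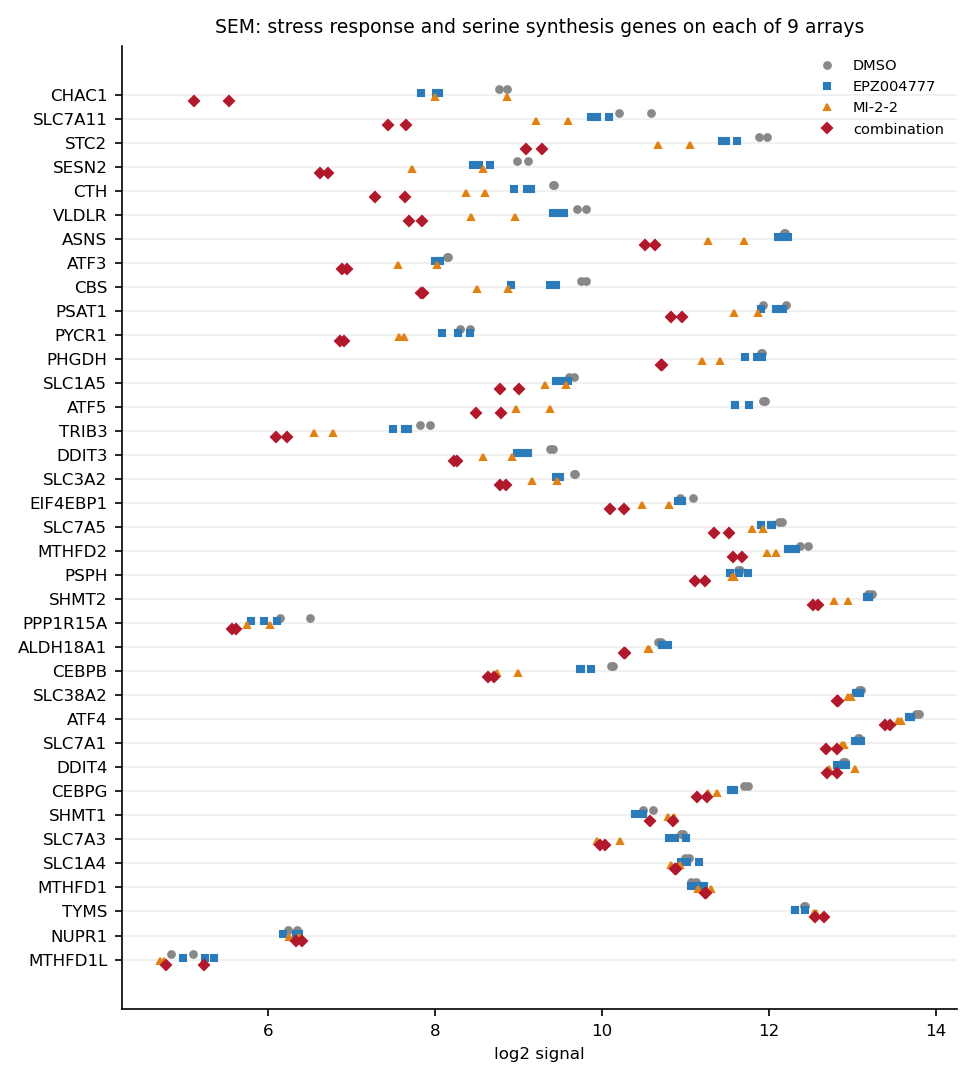
Level (log2 signal, horizontal axis) on each of the 9 SEM arrays of the tested members of the integrated stress response and serine lists, ordered by their change with the combination over MI-2-2, 1 point per array. For SLC7A11 the order from right to left is DMSO (10.59 and 10.20), EPZ004777, MI-2-2 and the combination (7.66 and 7.44).

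ATF4 and C/EBP proteins together bind the letters TGATGNAA, which were searched on both strands (TTNCATCA on the other) in the same windows of 250 bases. They occurred in 1.63% of the 11269 windows, in 9 of 303 rising genes (2.97%) and in 5 of 212 falling genes (2.36%). Among stress response, serine and synthetase genes they occurred in 3 of 19 that fell (15.8%) and in 3 of 25 that were not called (12%). In 2 of all windows a match overlapped with one to the interferon response element and in 0 with one to the PU.1 letters. The 3 windows of genes that fell are printed along the gene's strand with the matching letters in capitals, for CHAC1 at chr15:40953246-40953285 (plus), ASNS at chr7:97872453-97872492 (minus) and ATF3 at chr1:212565200-212565239 (plus):
CHAC1: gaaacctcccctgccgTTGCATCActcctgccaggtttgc
ASNS: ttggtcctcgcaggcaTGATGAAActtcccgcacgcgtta
ATF3: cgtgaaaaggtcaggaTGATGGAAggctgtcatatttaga
In CHAC1 the letters lie on the strand opposite to the gene. The changes of the 3 genes were -3.11, -0.91 and -0.87. A window without these letters says nothing on whether ATF4 binds elsewhere at the gene.

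B cell lists are to be read beside the shares over all genes, 2.86% called higher and 1.95% called lower. Among 15 genes of the pre-B cell receptor and its signalling 1 rose and 2 fell (median -0.01). IGLL1, a surrogate light chain component, was at 12.20 and 12.31 on the MI-2-2 arrays, 11.62 and 11.68 on the combination arrays, 12.065, 11.999 and 12.018 on the EPZ004777 arrays and 12.22 and 12.10 on the DMSO arrays (-0.60±0.08, adjusted p = 0.00453), and only the combination arrays stood below the rest. VPREB3, a relative of the surrogate light chain VPREB1, was at 11.21 and 11.31 on the MI-2-2 arrays, 10.62 and 10.67 on the combination arrays, 10.55, 10.30 and 10.48 on the EPZ004777 arrays and 10.36 and 10.30 on the DMSO arrays (-0.61±0.09, adjusted p = 0.0109). The combination arrays thus lay between those with MI-2-2 and those with DMSO. BANK1†, a scaffold of B cell receptor signals, was at 8.94 and 8.84 on the combination arrays against 8.15 and 8.22 with MI-2-2, 7.82, 7.75 and 7.49 with EPZ004777 and 7.93 and 8.18 with DMSO (0.71±0.13, adjusted p = 0.0194). VPREB3 lost its call without combination replicate 1 or 3 or MI-2-2 replicate 3 (adjusted p 0.0543 to 0.0846) and BANK1† without any 1 of the 4 arrays (0.0718 to 0.125). VPREB1 (-0.45±0.11), CD79A (-0.01±0.08) and CD79B† (0.10±0.09) were not called.

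Of 18 B-lineage transcription factors 1 rose and 1 fell (median -0.05). IRF4, which drives the step from pre-B to later stages, was at 10.20 and 10.21 on the MI-2-2 arrays, 9.47 and 9.61 on the combination arrays, 10.84, 10.83 and 10.81 on the EPZ004777 arrays and 10.71 and 10.70 on the DMSO arrays. It fell by 0.67±0.07 (adjusted p = 0.00161), but the mean over its probe sets gave -0.25 (adjusted p = 0.165). ETS1, a factor of resting lymphocytes, rose by 0.40±0.07 (adjusted p = 0.0221), a call lost without combination replicate 1 or 3 or MI-2-2 replicate 3 (0.099 to 0.131). PAX5 (-0.13±0.07, adjusted p = 0.376) and EBF1 (-0.15±0.06, adjusted p = 0.254), which define the lineage, were not called. Among 18 B cell surface antigens 3 rose and 0 fell (median 0.07): MME†, which encodes CD10 (0.65±0.10, adjusted p = 0.0124), CD180 (0.59±0.12, adjusted p = 0.0287) and CD24† (0.43±0.08, adjusted p = 0.0224). Each of these calls was lost in at least 3 of the 4 fits without 1 array (adjusted p up to 0.136). CD24† was at 11.91 and 11.99 on the MI-2-2 arrays, 12.29 and 12.47 on the combination arrays, 12.93, 13.01 and 12.97 on the EPZ004777 arrays and 12.52 and 12.48 on the DMSO arrays, so the combination arrays lay between those with MI-2-2 and those with DMSO. None of 7 genes of V(D)J recombination was called (median -0.01), with DNTT at -0.51±0.22 and RAG1 at 0.28±0.19. Of the 9 B precursor markers CD24† rose and IGLL1 fell.

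Other programs gave few calls or none, beside 4.81% called over all genes. None of 22 genes of mitosis was called (median 0, from -0.07 to 0.37), and none of 19 of MYC and ribosome biogenesis (median -0.04), 14 of cholesterol synthesis (-0.01), 11 liver X receptor targets (-0.05) or 15 chromatin modifiers of silencing (-0.02). MYC† itself, at 10.71 and 10.34 on the MI-2-2 arrays, 10.41 and 10.32 on the combination arrays, 11.79, 11.75 and 11.61 on the EPZ004777 arrays and 11.49 and 11.61 on the DMSO arrays, lay lower on all arrays with MI-2-2 and was not called between them (-0.15±0.12, adjusted p = 0.595). Of 24 DNA replication genes CCNE1 rose (0.51±0.08), of 13 G1 regulators CCND2† rose (0.80±0.18), of 19 apoptosis and p53 genes ZMAT3 fell (-0.46±0.08), of 19 lysosome genes CTSC fell (-0.61±0.07), and of 21 genes of glycolysis and hypoxia ALDOC (-0.75±0.12) and VEGFA† (-0.47±0.07) fell. Of these 6 genes only CTSC was called whichever of the 4 arrays was left out. The medians of those 5 lists lay between -0.06 and 0. The other bright probe sets of CTSC gave -0.05 to -0.91. The standard error of a change was 0.1 log2 at the median gene, and single changes of that size were not detectable.

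Markers of other cell types gave 2 calls. CD28, a T cell costimulatory receptor, was at 5.38 and 5.19 on the MI-2-2 arrays, 7.65 and 7.18 on the combination arrays, 5.28, 4.90 and 5.49 on the EPZ004777 arrays and 3.98 and 4.32 on the DMSO arrays (2.13±0.22, adjusted p = 0.00171), and PRF1, perforin, at 6.27 and 6.30 with MI-2-2 and 5.46 and 4.80 with the combination (-1.15±0.19, adjusted p = 0.0137). The call of PRF1 was lost without MI-2-2 replicate 1 or 3 (adjusted p = 0.0678 and 0.0927), and its other bright probe set gave -0.02 (mean of both -0.58, adjusted p = 0.0683). With the mean of its probe sets CD28 rose by 0.76. None of 4 erythroid and megakaryocyte markers and none of 9 epithelial and stromal markers was called (medians 0.08 and 0.21, against -0.0185 for all genes).

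**Figure D3:**
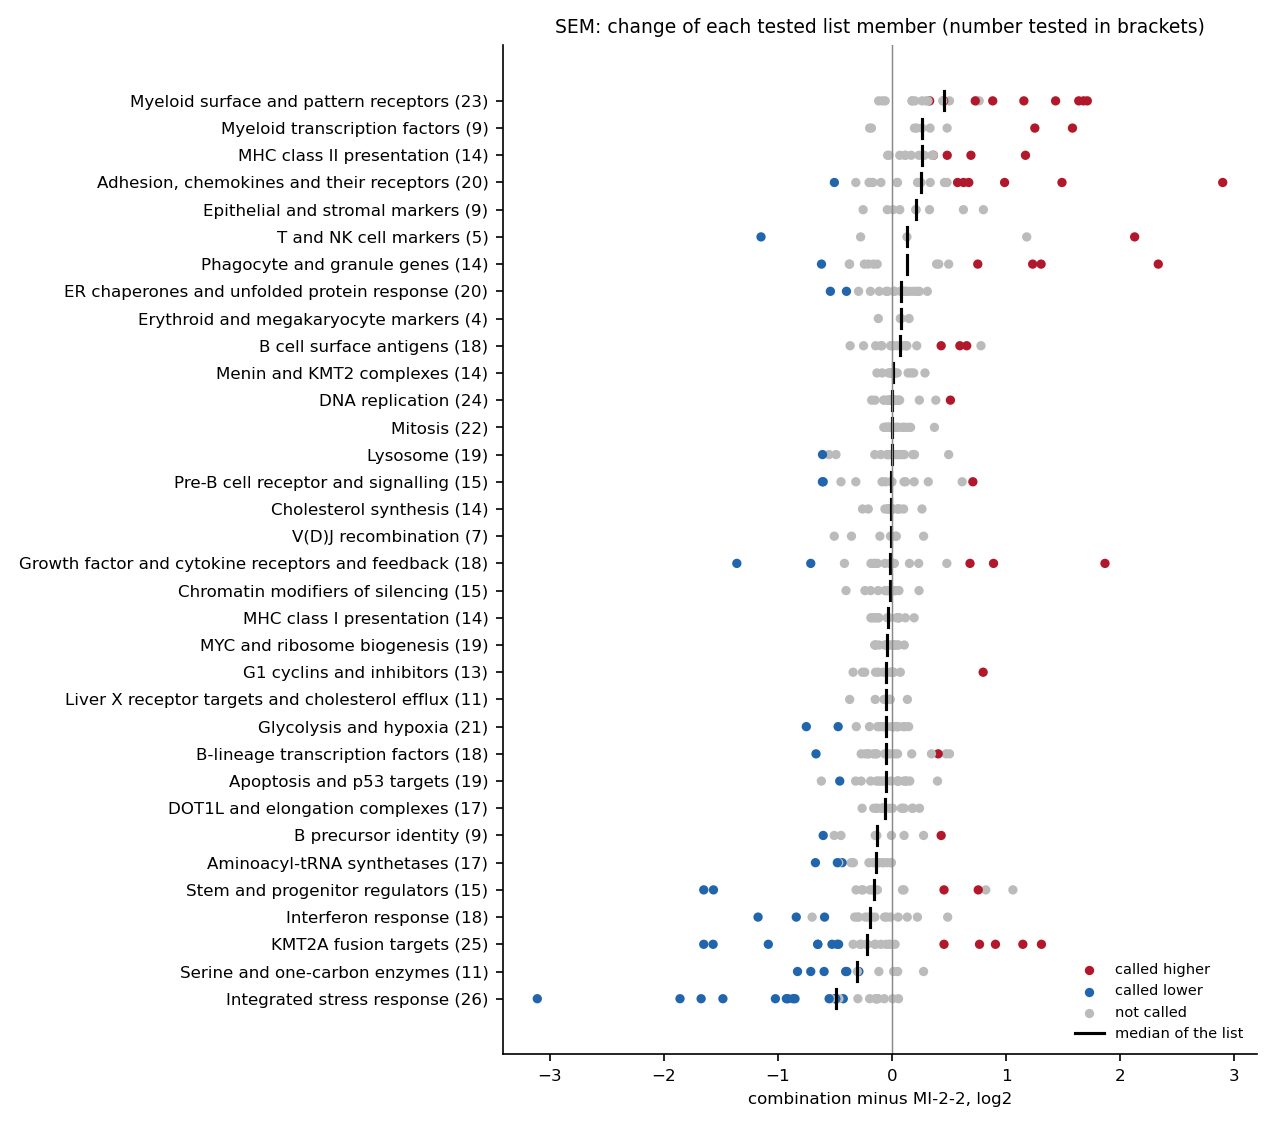
Change with the combination over MI-2-2 (log2, horizontal axis) of each tested member of the 34 gene lists, 1 point per gene, coloured by call, with a bar at the median of each list. The list of myeloid surface and pattern receptors has the highest median (0.45) and the integrated stress response the lowest (-0.5), while the lists of mitosis and DNA replication lie around 0.

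Called genes lay beside each other in places. Of the 401 rises 57 (14.2%) lay on the chromosome beside a tested gene that rose too, and of the 274 falls 34 (12.4%) beside one that fell. The share of all tested genes that lie beside such a gene was not computed, so these counts do not measure clustering. Some of the pairs are a gene and its antisense gene. A run of 4 rises lay in the MS4A cluster of chromosome 11, with MS4A3 (2.09±0.24), MS4A6A† (3.58±0.18), MS4A4A† (1.24±0.10) and MS4A7 (1.85±0.18), all of which encode membrane proteins of the same family. Cross-reaction between their probe sets was not tested. A run of 4 falls on chromosome 4 held FGFBP2 (-0.92±0.15), PROM1† (-1.65±0.07), TAPT1 (-0.65±0.07) and the antisense gene TAPT1-AS1 (-1.14±0.13), with PROM1 and TAPT1 both listed as fusion targets. On chromosome 6 RUNX2 (-1.57±0.08) fell beside SUPT3H† (-1.14±0.12), a subunit of a histone acetylation complex whose gene overlaps that of RUNX2. SUPT3H† was at 8.55 and 8.85 on the MI-2-2 arrays, 7.49 and 7.64 on the combination arrays, 9.22, 9.34 and 9.35 on the EPZ004777 arrays and 10.33 and 10.18 on the DMSO arrays, and each compound alone already lay below DMSO.

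EPZ004777 was also given without MI-2-2, and the change it made there is measured on other arrays. EPZ004777 against DMSO gave 1232 calls (8.78%). The number was 811 without EPZ004777 replicate 2, 667 without EPZ004777 replicate 3, 329 without DMSO replicate 2 and 299 without DMSO replicate 3. Of the 675 genes called for the combination over MI-2-2, 285 were called in the same direction there (42.2% of the 675 and 23.1% of the 1232) and 15 in the opposite one. Over all 14037 genes the changes had r = 0.531 and rho = 0.387, as a description across genes, which are not independent.

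The change with EPZ004777 differed between cells with and without MI-2-2 in 136 genes (0.969%). Arrays with and without MI-2-2 also differ in the actin value, so MI-2-2 and RNA quality cannot be told apart in these differences. In 43 of them the rise was larger with MI-2-2, in 34 the fall was larger, and in 59 the size of the change was no larger with MI-2-2 than without. The largest differences upwards were of CCL2† (3.32±0.21, adjusted p = 0.00103), MS4A6A† (2.98±0.25, adjusted p = 0.00253), CES1† (2.84±0.12, adjusted p = 0.000192), CCR2 (2.83±0.27, adjusted p = 0.0052) and GPR183 (2.20±0.32, adjusted p = 0.0206). In each, EPZ004777 alone changed the gene by less than 0.6 log2. However, each lay below percentile 40 (4.89 to 4.95 log2) on every EPZ004777 and DMSO array. The change without MI-2-2 was thus read on a dim signal, and these differences give no exact size. CCR2 and CES1† were tested only because their combination arrays are bright. Among the falls, those of RUNX2 (-1.59±0.10, adjusted p = 0.00103), TRHDE (-1.67±0.12, adjusted p = 0.00154) and CHAC1 (-2.25±0.35, adjusted p = 0.0291) were larger with MI-2-2, with 0.03, -0.09 and -0.85 for EPZ004777 alone. In contrast, IFIT2 (-0.22, adjusted p = 0.48), HMGA2† (-0.17, adjusted p = 0.51) and FCGR2B† (0.26, adjusted p = 0.763) gave no called difference. A missed call does not show that these changes were alike.

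Of the 5 largest differences downwards, CHAC1 was a larger fall with MI-2-2, as given above, and the other 4 were of genes that EPZ004777 raised more without MI-2-2. PPARGC1A, a coactivator of mitochondrial genes, was at 5.42 and 5.23 on the MI-2-2 arrays, 5.76 and 5.31 on the combination arrays, 6.71, 6.83 and 6.75 on the EPZ004777 arrays and 4.51 and 4.75 on the DMSO arrays. EPZ004777 alone stood apart from DMSO by 2.13, on top of MI-2-2 the change was 0.21±0.15 (not called), and the difference was -1.92±0.20, adjusted p = 0.00682. TMEM119, a membrane protein known from microglia and bone, was at 10.00 and 10.14 on the MI-2-2 arrays, 10.39 and 10.46 on the combination arrays, 8.76, 8.06 and 8.29 on the EPZ004777 arrays and 6.07 and 5.98 on the DMSO arrays. Its MI-2-2 arrays lay near the combination arrays, and the difference was -1.99±0.26 (adjusted p = 0.0153). MPEG1, given above, differed by -2.15±0.30 (adjusted p = 0.0206). GZMK, a granzyme of T and NK cells, was at 6.81 and 7.19 on the MI-2-2 arrays, 5.77 and 5.42 on the combination arrays, 8.16, 7.67 and 8.07 on the EPZ004777 arrays and 7.18 and 6.56 on the DMSO arrays. It rose by 1.10 with EPZ004777 alone and fell by 1.40 with EPZ004777 on MI-2-2 (-2.50±0.34, adjusted p = 0.0156). That fall lost its call without any 1 of the 4 arrays (adjusted p 0.051 to 0.131) and with a replicate block. The 136 calls became 60 without combination replicate 1, 56 without combination replicate 3, 87 without EPZ004777 replicate 3, 76 and 75 without MI-2-2 replicate 1 and 3, and 49 without either DMSO array.

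**Figure D4:**
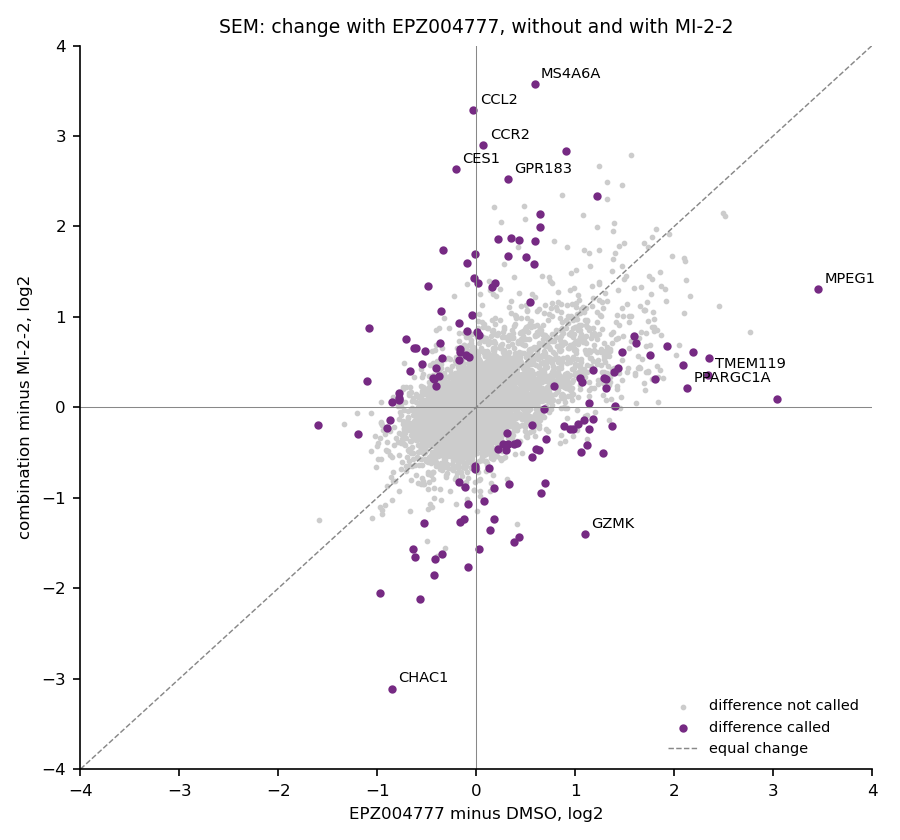
Change with EPZ004777 over DMSO (log2, horizontal axis) against change with the combination over MI-2-2 (log2, vertical axis) of the 14037 genes tested in SEM, with the dashed line for equal change and purple points for the 136 genes whose changes differed. CCL2 lies at -0.03 and 3.29, and TMEM119 at 2.35 and 0.36.

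The same contrast in 2 other B-precursor lines under the same doses and duration was tested against SEM. RS4;11, which carries KMT2A-AFF1 too (3 arrays a group), gave 1501 calls (10.8%, and 983 without MI-2-2 replicate 1), and REH, which has no KMT2A fusion (3 arrays a group), 280 (2.01%, and 149 to 189 without 1 array). Of the SEM calls tested in RS4;11 225 were called in the same direction there (37.9%, and 16% of the RS4;11 calls) and 28 in the opposite one. In REH 44 were (7.83%, and 20.1% of the REH calls), and 7 went the other way. In RS4;11 PRSS12 (-2.68±0.06), RUNX2 (-1.38±0.07), CCNA1 (2.35±0.15), CD86 (2.09±0.14), FCGR2B† (1.57±0.18) and IL10RA (1.94±0.18) changed in the direction of SEM. In REH GPAT3† (1.14±0.13) and RBM24 (0.82±0.18) did, while HMGA2† (0.90±0.11) and IFITM1† (0.46±0.10) rose there and fell in SEM.

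The change differed between SEM and RS4;11 in 481 genes (3.22%) and between SEM and REH in 494 (3.31%). Without SEM combination replicate 1 these were 300 and 296, and without SEM MI-2-2 replicate 3 277 and 265. CCL2†, CCR2 and CES1†, among the largest rises in SEM, were too dim to be tested in RS4;11 or REH by themselves. They entered the joint fit through their high SEM arrays, so their differences between lines are set against a dim signal and are no measure of size. CHAC1 changed by -3.11 in SEM, -0.69 in RS4;11 and 0.14 in REH, and SEM differed from both (adjusted p = 7.65e-05 and 1.49e-06). The stress response list had 14 falls of 26 in SEM, 7 of 26 in RS4;11 (median -0.2) and 0 of 25 in REH (median -0.04). For KMT2A fusion targets RS4;11 gave 7 falls and 3 rises of 25, and REH 0 falls and 2 rises of 22. Over all genes 0.186% fell and 1.82% rose in REH, 3.95% and 6.83% in RS4;11, and 1.95% and 2.86% in SEM. With so few falls in REH, 0 falls in a list of this length is near the share over all genes. RUNX2 differed between SEM and REH by -2.76±0.38 (adjusted p = 3.9e-05). Its fall in RS4;11 was close in size to that in SEM. The B cell antigen MS4A1, which encodes CD20, was the reverse case, with 0.78±0.18, adjusted p = 0.0503, not called, in SEM and 3.41 in RS4;11 (difference -2.63±0.31, adjusted p = 3.89e-06), and so was SPRY1, which fell by 1.36 in SEM and rose by 1.07±0.11 in RS4;11.

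**Figure D5:**
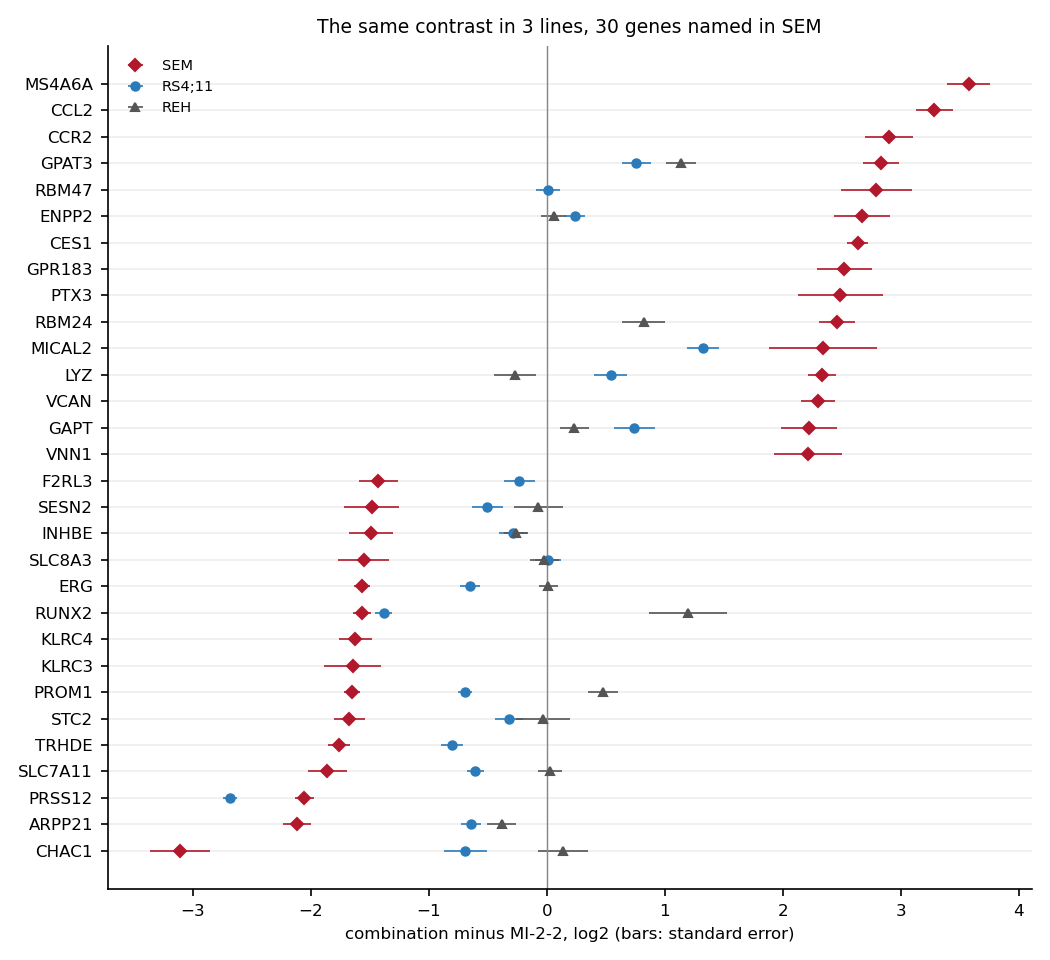
Change with the combination over MI-2-2 (log2, horizontal axis, bars for the standard error) in SEM, RS4;11 and REH for the 30 genes with the largest changes in SEM. A line without a point had too low a signal to be tested there, as for CCL2. PRSS12 lies at -2.05 in SEM and -2.68 in RS4;11, and RUNX2 at -1.57 and -1.38.

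MOLM-13, an acute myeloid leukaemia line with KMT2A-MLLT3, had 3 µM MI-2-2 and 4 days, so its values are set beside those of SEM without a test. It gave 5576 calls (39.2%), with 17.7% of all genes called higher and 21.5% called lower. Of the SEM calls tested in both lines 270 were called in the same direction in MOLM-13 (49.2%, and 5.2% of the MOLM-13 calls) and 71 in the opposite one. GPAT3† was 3.39±0.13 there, PTX3 2.22±0.18, ITGAM† 1.67±0.11 and MPEG1 1.64±0.08. INHBE, an inhibin family subunit that fell by 1.49±0.19 (adjusted p = 0.00443) in SEM, was -1.56±0.11, and CHAC1 -1.25±0.09. The stress response list had 18 falls of 25 and the synthetases 16 of 17, and 20 of 21 myeloid surface receptors rose. CCL2† (-0.06±0.10) was not called in MOLM-13 (adjusted p = 0.667), and LYZ† was 0.16±0.06.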

How the data were processed

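Total RNA (50 ng) was amplified with the Nugen Ovation system and hybridized to Affymetrix arrays. The authors deposited log2 signals per probe set. RMA, affy and R 3.0.2 are the tools listed per the submitters' processing notes. No further normalization was applied, and precision is set by the number of arrays. Of 54675 probe sets 41097 carried exactly 1 symbol in the platform annotation (41043 named anew through their Entrez identifier), and 1801 with several symbols and 11777 with none were left out, as were the 62 control probe sets. Each gene was represented by its brightest probe set on average, and entered if that exceeded percentile 40 in 2 or more arrays of the fit. The 9 SEM arrays were fitted together in limma 3.58.1 under R 4.3.3 (lmFit, eBayes, 4 groups). Differences between lines came from 1 fit of the 32 arrays of SEM, RS4;11 and REH, in which the probe set of a gene may be another. Promoter windows came from RefSeq (GRCh38.p14), with 11269 of 14037 genes matched.

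Named were the 15 largest rises and falls among called genes whose arrays do not overlap, without placeholder symbols, up to 3 called members per list with the largest changes, DOT1L, MEN1, MEIS1, CCNA1, KMT2A and AFF1, and the 5 largest differences each way. Other genes, given as further members of a list, as neighbours or as examples, were chosen after their values were seen. The comparison, the 34 lists and these rules were chosen with earlier results of these data known. The alternatives tried were to drop the filter, to average probe sets, to quantile normalize once more, a replicate block, an intensity trend with a robust prior, each array left out, only the 4 arrays, all 44 human arrays, actin or GAPDH covariates, array weights and an adjusted p under 0.01. The fit was tested on simulated data.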

Additional observations from a re-analysis of the deposited data

Results flagged for a closer look

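For 30 values the same treatment changed a gene by a different amount in 2 settings, by limma's test of the difference itself at an adjusted p under 0.05, and the 5 largest in each direction are given per comparison. For EPZ004777 with MI-2-2 minus EPZ004777 without it in SEM, these were CCL2† (3.32), MS4A6A† (2.98), CES1† (2.84), CCR2 (2.83) and GPR183 (2.20) upwards. Downwards they were GZMK (-2.50), CHAC1 (-2.25), MPEG1 (-2.15), TMEM119 (-1.99) and PPARGC1A (-1.92). For SEM minus RS4;11 they were CCL2† (3.07), CCR2 (2.98), RBM47† (2.78), CES1† (2.66) and PTX3 (2.36), and MS4A1 (-2.63), SPRY1 (-2.43), CHAC1 (-2.42), HBD (-2.24) and TNS1 (-2.17). HBD, a globin chain, rose by 2.69 in RS4;11 and was not called in SEM (0.46). The probe sets of TNS1, which links actin to integrins, differ in sign in SEM (0.29 and -1.68). For SEM minus REH they were CCL2† (3.14), CCR2 (2.82), LYZ† (2.60), CES1† (2.57) and GPR183 (2.47), and CHAC1 (-3.25), RUNX2 (-2.76), PROM1† (-2.13), DKK1 (-2.07) and HMGA2† (-1.99). DKK1, an inhibitor of Wnt signalling, was too dim to test in SEM alone and changed by 1.68 in REH. Several genes were too dim to be tested in the other line by itself and entered the joint fit through their high SEM arrays: CCL2†, CCR2, CES1† and PTX3 in RS4;11, and CCL2†, CCR2, CES1† and GPR183 in REH. Their differences are therefore set against a dim signal, as is that of DKK1 in the opposite sense, and give no exact size.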

How the results depend on the processing

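The number of genes called for the combination over MI-2-2 (675) was 424 with a replicate block, 1154 with an intensity trend and robust prior, 267 with the GAPDH covariate, 238 at an adjusted p under 0.01, and 246 to 360 without 1 of its arrays. It stayed within 1.5 times of 675 with no filter (521), quantile normalization (711), the mean of probe sets (674), only 4 arrays (503), 44 arrays (849), the actin covariate (579) and array weights (683). The replicate block and the trend gave 61 and 378 for the difference with and without MI-2-2 (136; 49 to 168 without 1 array), and 614 and 1877 for EPZ004777 over DMSO (1232; 299 to 1760). Without 1 array the counts were 277 to 444 for SEM minus RS4;11 (481), 265 to 444 for SEM minus REH (494), 983 to 1315 for RS4;11 (1501) and 149 to 189 for REH (280). The causes were not tested. The replicate numbers shared by both groups (1 and 3) gave 2 pairs, whose deviations correlated at 0.224 (-0.145 for DMSO and EPZ004777). No label says that a number marks a shared culture or day, and 2 pairs are too few to settle it, so the block stayed an alternative. TNS1 reversed, from 0.29 to -0.56 with the mean of probe sets and to -1.68 with 4 or 44 arrays, where another probe set was used. The mean of probe sets moved further values by over 1.5 times: RBM47† to 1.22, MICAL2† to 1.18, KLF4† to 1.01, ITGAM† to 0.74, SPRY1 to -0.89, CXCL8† to 0.97, RGS1† to 0.52, HMGA2† to -0.49, SLC8A3 to -0.94 and MME† to 0.99, all still called, and OAS3 (-0.39), XBP1 (-0.22), CCNE1 (0.19), CCND2† (0.23) and VEGFA† (-0.29), not called. ENPP2 was 1.16 with 44 arrays. Of 76 called genes named by rule, 45 kept their call in every alternative that tested them, among them 26 of the 30 with the largest changes, and 31 lost it in at least 1. Signal limits the rest: genes below percentile 40 were not tested.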

Other observations

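The following genes were chosen after their values were seen and stand for themselves only. BMP2, a bone morphogenetic protein, was at 4.50 and 4.96 on the MI-2-2 arrays, 6.73 and 6.67 on the combination arrays, 7.01, 6.74 and 6.77 on the EPZ004777 arrays and 4.95 and 5.10 on the DMSO arrays. The arrays with EPZ004777 lay above those without it in both settings, with a rise of 1.97±0.15 (adjusted p = 0.000441) over MI-2-2 and 1.81±0.14 (adjusted p = 0.000404) over DMSO in limma. INHBA, the subunit of activin A, showed the same arrangement at 4.76 and 5.09 on the MI-2-2 arrays, 6.41 and 6.16 on the combination arrays, 5.64, 6.03 and 6.41 on the EPZ004777 arrays and 4.82 and 4.76 on the DMSO arrays (1.36±0.23, adjusted p = 0.0149 and 1.24±0.21, adjusted p = 0.0119). The difference between settings was not called for either gene (adjusted p = 0.81 and 0.909). In RS4;11 BMP2 rose by 2.12±0.20 with the combination over MI-2-2, and INHBA (-0.28±0.37) was not called. INHBE, a subunit of another activin, fell by 1.49±0.19 (adjusted p = 0.00443) over MI-2-2 in SEM and was not called over DMSO (0.38±0.17, adjusted p = 0.209).

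Other genes outside the lists that rose were as follows. CD1A, which presents lipids to T cells, was at 6.13 and 6.45 on the MI-2-2 arrays, 8.22 and 7.85 on the combination arrays, 4.84, 4.75 and 4.44 on the EPZ004777 arrays and 5.14 and 4.88 on the DMSO arrays (1.74±0.18, adjusted p = 0.00176), and its neighbour CD1D rose by 0.96±0.20. RNASE2, the eosinophil-derived neurotoxin, was at 6.29 and 5.80 on the MI-2-2 arrays, 7.79 and 8.40 on the combination arrays, 3.03, 3.52 and 3.07 on the EPZ004777 arrays and 2.85 and 3.07 on the DMSO arrays (2.05±0.25, adjusted p = 0.00416), although its probe set may not separate it from close relatives. THBD†, thrombomodulin, was at 6.53 and 6.88 on the combination arrays against 4.78 and 4.88 with MI-2-2, 4.60, 4.75 and 4.66 with EPZ004777 and 4.35 and 4.29 with DMSO (1.87±0.12, adjusted p = 0.000175), and ANXA1, an annexin that limits inflammation, at 7.83 and 7.47 on the combination arrays against 5.97 and 5.66 with MI-2-2, 5.05, 4.86 and 4.94 with EPZ004777 and 4.07 and 4.26 with DMSO (1.84±0.15, adjusted p = 0.000532). The combination arrays lay above every other array for each of these 4 genes described with levels.

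The arrays measure 1 cell line with 2 arrays a group, so a change shared by a batch of cultures cannot be told apart from one of the treatment. RNA does not show histone methylation, protein or cell fate.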
